A study of Homo sapiens with 6 samples.

Results

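The promoter windows of long non-coding RNA (lncRNA) genes that lie beside a small RNA gene were examined in small RNA libraries from HEK293T cells, a human embryonic kidney cell line. A window spanned 400 bp around a start site, with 150 bp before it and 250 bp after it. A lncRNA window was taken when it overlapped, or lay within 1000 bp of, a window of any small RNA class. A short stretch of chromosome 1 and the mitochondrial genome were left out. The rule used positions and labels, not read counts. It took 106 of the 27547 lncRNA windows, among 53603 windows in all, and left out 4 lncRNA windows in the chromosome 1 stretch.

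The study asked how La, the protein encoded by SSB, affects small RNA from promoters. HEK293T cells were given 150 nM siRNA, either a control or one targeting La, with Lipofectamine RNAiMAX for 48 h, in 3 biological replicates per arm. Purification by mirVana PARIS was followed by Antarctic phosphatase, by T4 polynucleotide kinase and by the NEBNext small RNA library kit. Both arms went through transfection and both enzymes, and the siRNA target was the sole labelled difference between them.

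RNA polymerase II makes most lncRNAs, snoRNA host transcripts and most spliceosomal snRNAs. RNA polymerase III makes tRNA, 5S rRNA, Y RNA, 7SL RNA and U6, and RNA polymerase I makes the long rRNA precursor. La binds the run of uridines that ends a new polymerase III transcript and shields it from exonucleases. A lncRNA promoter that sits next to a polymerase I or III gene has a transcription unit of another kind within reach.

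Total counts per library ran from 3066299 to 4105806. Of the 2 start-site windows of SSB, the more read one held 4, 3 and 3 reads under the control siRNA (replicates 1 to 3), compared with 1, 0 and 0 under the La siRNA. The other held 0, 0 and 1, compared with 0, 2 and 0. These few promoter reads do not measure the SSB transcript, and how far the siRNA lowered it was not assessed. La knockdown replicate 2 stood apart from the other libraries in the rRNA-rich windows described below, and results that rest on it are given with and without it. In all windows together, a count of 3 reads over the 6 libraries equals 0.146 CPM (counts in a library scaled to 1000000), the limit that a count of 0 allows. Such limits cover counting error only. Promoter small RNA gives no marker of cell type, so the cell line label was not checked.

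Sequences are shown for the 3 cases on which the results turn: a strongly read neighbour next to an unread lncRNA window, a lncRNA promoter next to a tRNA or snoRNA gene, and a lncRNA window that copies mitochondrial DNA. RNY4, a Y RNA gene at chr7:148963315-148963410 on the plus strand, and SNORD59A, a C/D box snoRNA gene at chr12:56645027-56645101 on the minus strand, come from GENCODE release 29 on GRCh38. In RNY4 the capitals mark the final run of T, which in RNA is the type of end that La binds. In SNORD59A they mark the C box TGATGA and the last D box CTGA.
RNY4: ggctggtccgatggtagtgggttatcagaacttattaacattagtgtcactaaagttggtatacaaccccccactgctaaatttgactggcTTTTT
SNORD59A: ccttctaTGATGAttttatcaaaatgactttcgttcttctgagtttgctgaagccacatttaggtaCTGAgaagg

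The promoters of LINC01783, at chr1:16535603-16535902, and of the snoRNA host gene SNHG12, at chr1:28581824-28582123, both on the minus strand, come from RefSeq on GRCh38.p14. The capitals mark the last 50 bases, from the start site on. Part of each lies in a lncRNA window: 294 of the 300 bases for LINC01783 and 181 for SNHG12. For SNHG12 the shared bases all lie before the start site, so the capitals are outside the window.
LINC01783: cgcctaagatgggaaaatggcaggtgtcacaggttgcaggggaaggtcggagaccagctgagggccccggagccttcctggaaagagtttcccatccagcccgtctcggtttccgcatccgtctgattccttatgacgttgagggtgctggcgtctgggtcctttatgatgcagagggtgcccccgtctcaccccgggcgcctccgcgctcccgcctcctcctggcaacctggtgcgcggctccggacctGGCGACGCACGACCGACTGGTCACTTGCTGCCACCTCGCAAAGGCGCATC
SNHG12: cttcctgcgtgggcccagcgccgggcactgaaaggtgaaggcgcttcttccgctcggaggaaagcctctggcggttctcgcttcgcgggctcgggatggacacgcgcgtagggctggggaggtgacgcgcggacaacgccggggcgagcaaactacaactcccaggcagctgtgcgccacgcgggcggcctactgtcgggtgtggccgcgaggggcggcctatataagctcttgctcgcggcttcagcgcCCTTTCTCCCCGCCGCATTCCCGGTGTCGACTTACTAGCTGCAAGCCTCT

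MTND4P12 is a nuclear copy of the mitochondrial gene MT-ND4, and its stretch chr5:134927202-134927351 on the minus strand, from GENCODE release 29 on GRCh38, lies in a lncRNA window. The capitals mark the 5 bases that differ from MT-ND4.
MTND4P12: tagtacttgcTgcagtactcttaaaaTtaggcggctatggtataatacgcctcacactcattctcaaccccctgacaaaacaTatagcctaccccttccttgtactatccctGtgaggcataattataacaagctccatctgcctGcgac

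Outside the chromosome 1 stretch and the mitochondrial genome, no lncRNA window shared a base with a small RNA window, and neither did any protein-coding window. Each of the 106 windows therefore lay beside its neighbour, at a gap of 36 to 998 bp with a median of 477 bp. The windows fell on 17 chromosomes in 103 separate regions, and 3 of those regions held 6 windows that overlapped one another. They had 97 distinct nearest small RNA windows. A GENCODE start site lay within 50 bp of the start site of 18 windows, and 69 lay in an annotated gene of GENCODE or RefSeq. For the other windows the label lncRNA rests on the table alone.

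The nearest neighbour was a tRNA window for 36 of the 106 and a 7SL RNA (SRP RNA) window for 33. It was a snoRNA window for 9, an rRNA window for 8, U2 for 5 and Y RNA for 4. The classes 5S rRNA, 7SK, U1 and U4 had 2 each, and U5, U6 and U6atac had 1 each. By the polymerase that makes the neighbour's class, 79 windows lay beside polymerase III classes, 19 beside polymerase II classes and 8 beside polymerase I classes.

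At the edge of the distance rule, the windows with the largest gaps were lncRNA_19646 at 998 bp and lncRNA_13661 at 996 bp, each with 0 reads beside a neighbour with 0 reads. Just outside, lncRNA_2790 at 1025 bp held 2 reads beside a 7SL window with 19 reads. The next, lncRNA_28252 at 1054 bp, held 3 reads, all in La knockdown replicate 3, beside a neighbour with 0.

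Reads were held almost wholly by a few windows. Over the 6 libraries, 49 of the 106 windows had at least 1 read and 57 had none. Of 310402 reads in all 106 windows, the 8 windows beside rRNA held 309179, which is 99.6%. One further window, lncRNA_45461, held 1101. The remaining 97 windows together held 122 reads, spread over 40 windows with 1 to 18 reads each. Those 97 windows summed to 11, 17 and 27 reads under the control siRNA, compared with 25, 27 and 15 under the La siRNA, so the arms overlapped.

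By the class of the neighbour, 33 of the 79 windows beside polymerase III classes had a read, with 1194 reads in sum. In 5 of these 79 the neighbour, labelled as tRNA, lies in a nuclear copy of mitochondrial DNA rather than at a known polymerase III gene. Those 5, lncRNA_45461 among them, held 1121 reads, and the other 74 held 73 reads in 29 windows. Of the 19 windows beside polymerase II genes 8 had a read, with 29 in sum. All 8 windows beside polymerase I genes had reads. Among the 33 windows beside 7SL genes, which are mostly copies scattered over the genome, 9 had a read and the sum was 17. Only 12 of those 33 had a neighbour with a read, and no such neighbour held more than 5. The 36 windows beside tRNA windows were read more widely, 21 of them with at least 1 read. Without lncRNA_45461 the other 35 held 7, 9 and 17 reads under the control siRNA, compared with 14, 16 and 7 under the La siRNA.

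**Figure D1:**
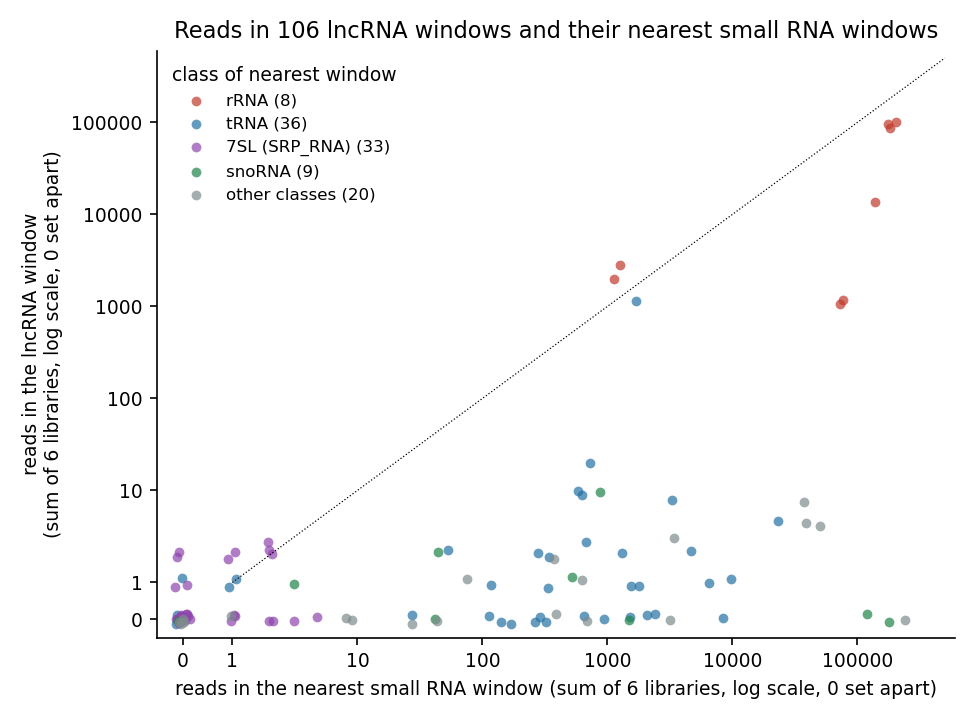
Total reads over the 6 libraries in each lncRNA window (vertical axis) against those in its nearest small RNA window (horizontal axis), on log scales that place 0 at the lower edge, coloured by the class of the neighbour, with points shifted slightly so that ties can be seen. The 8 windows beside rRNA and lncRNA_45461 stand above the rest, and the other 97 hold at most 18 reads whatever the neighbour holds.

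Outside the rRNA neighbours, the lncRNA windows next to the 3 most strongly read small RNA genes were all unread. These windows were chosen for display after their values had been seen. RNY4, shown above, makes a Y RNA, a short RNA bound by Ro60 and La. Its window held 51980, 42240 and 52231 reads under the control siRNA, compared with 41917, 35674 and 51603 under the La siRNA. The lncRNA window at chr7:148962048-148962447, 717 bp away, held 0 in all 6. Against the limit of 3 counts over the 6 libraries, the RNY4 window was at least 91882-fold higher. This limit is one-sided, unlike the two-sided intervals given further on for windows with reads.

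SNORD59A, also shown above, is a guide RNA for ribose methylation encoded within ATP5F1B. Its window held 33226, 27397 and 29296 reads under the control siRNA, compared with 26062, 17609 and 28311 under the La siRNA. The lncRNA window at chr12:56646182-56646581, 930 bp from it, held 0 reads, so that the neighbour was at least 53967-fold higher. Both neighbours were read in every library at a similar order of magnitude, and the lncRNA windows in none.

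GAS5, a growth-arrest-associated lncRNA that hosts several C/D box snoRNAs, gave the same picture inside a host gene. The window at chr1:173868486-173868885 lies in GAS5, 348 bp from the window of SNORD74. SNORD74 held 41343, 17717 and 20226 reads under the control siRNA, compared with 13479, 9879 and 25694 under the La siRNA, with overlapping arms. The GAS5 window held 0 in all 6, and the SNORD74 window was at least 42779-fold higher. The window in SNHG12 likewise held 0 reads, at 739 bp from SNORA16A with 1542. It does not cover the SNHG12 start site shown above, so its count does not describe that site.

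Of 33 snoRNA and miRNA host genes and related non-coding genes listed for description, 3 had a window in the set: GAS5, SNHG12 and EPB41L4A-AS1. EPB41L4A-AS1, the host of the H/ACA snoRNA SNORA13, was the one with reads. It held 0, 2 and 0 under the control siRNA, compared with 3, 1 and 3 under the La siRNA, beside 960 reads for SNORA13 at 220 bp. These counts overlap and were too few for the main fit. With low counts kept in, the log2 change of the EPB41L4A-AS1 window was 1.63 (edgeR adjusted p = 0.581).

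Lower ratios were seen, with wide counting intervals, where the lncRNA window had a few reads. The U1 variant RNVU1-28 had 34038 reads and the lncRNA window 131 bp away had 7, a ratio of 4863 with a 95% exact interval of 2360 to 12094. Near each of 2 U2 copies within CCDC200 a lncRNA window had 4 reads, against 44672 and 43993 reads. The first ratio was 11168 with an interval of 4362 to 40989, and the U2 copies can share reads. These snRNAs are made by polymerase II and are parts of the spliceosome.

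tRNA genes gave similar contrasts. LINC01783, whose promoter is shown above, had 1 read, in La knockdown replicate 1, at 108 bp from the glutamate tRNA gene TRE-TTC4-1 with 6454 reads. Next to TRE-TTC3-1, with 8483 reads, the LINC03126 window had 0 at a gap of 68 bp, at least 2828-fold lower. Next to TRY-GTA5-5, a tyrosine tRNA gene with 9482 reads, the lncRNA window had 1. At gaps of 68 and 108 bp, these lncRNA windows had no more than 1 read.

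The arginine tRNA gene TRR-ACG1-1 was the nearest neighbour whose own reads passed the test between the arms with all libraries and TMM factors. Its window held 6524, 5447 and 5663 reads under the control siRNA, compared with 1650, 1367 and 2492 under the La siRNA. It fell by 1.43 on the log2 scale (SE 0.27, edgeR, adjusted p = 0.0156 by Benjamini-Hochberg), and passed in 15 of 16 alternatives, missing it without La knockdown replicate 1 (adjusted p = 0.136 by edgeR). In these bulk libraries, fewer cells with the RNA and less RNA per cell cannot be told apart. The lncRNA window 452 bp from it held 1, 1 and 0 reads under the control siRNA, compared with 2, 0 and 1 under the La siRNA. Of the 97 neighbours, 48 were abundant enough to test, 1 was lower and 0 higher, while over all 1064 tested windows 4.79% were lower and 0.658% higher (5.45% either way). TRY-GTA5-5, with a log2 change of -1.20 (edgeR adjusted p = 0.129), passed in 3 alternatives: with the replicate block (edgeR adjusted p = 0.00220), with low counts kept in (0.000340) and without La knockdown replicate 3 (0.0304). The 26 tested tRNA neighbours had a median log2 change of -0.34.

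More windows had a read where the neighbour had reads, and their share did not fall steadily with distance. Outside the rRNA neighbours there were 98 windows. At gaps of 1 to 200 bp 8 of 19 had a read (42.1%), at 201 to 500 bp 20 of 30 (66.7%) and at 501 to 1000 bp 13 of 49 (26.5%). With an unread neighbour 5 of 29 had a read. With fewer than 100 neighbour reads it was 11 of 25, from 100 to under 1000 it was 12 of 22, from 1000 to under 10000 it was 9 of 15, and from 10000 on it was 4 of 7. In those last 7 windows the reads summed to 20, and 3 of the 7 had none. These shares describe the windows and were not tested.

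Against other windows, the 106 windows were read more widely than other lncRNA windows and less widely than the protein-coding windows beside small RNA genes. In each library 16.0% to 25.5% of the 106 had a read, while 6.42% to 8.42% of the 27437 other lncRNA windows had one. The difference, over both arms, was 12.8 points (SD 3.06, n = 6 libraries), higher in 6 of 6 libraries (exact sign permutation test, two-sided p = 0.03125, the smallest it can give, adjusted p = 0.03125 over 3 comparisons). Without the 8 windows beside rRNA it was 6.30 points (SD 3.35), again in 6 of 6 libraries (exact permutation p = 0.03125). The 113 protein-coding windows within 1000 bp of a small RNA window had a read in 36.3% to 46.9%, and the difference of the lncRNA windows from them was -18.5 points, lower in 6 of 6 libraries (exact permutation p = 0.03125). Each of these p-values measures agreement among 6 libraries that read the same windows. The spread between windows does not enter them, so whether the sets differ beyond that spread was not tested. Other protein-coding windows had a read in 19.9% to 26.2%.

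**Figure D2:**
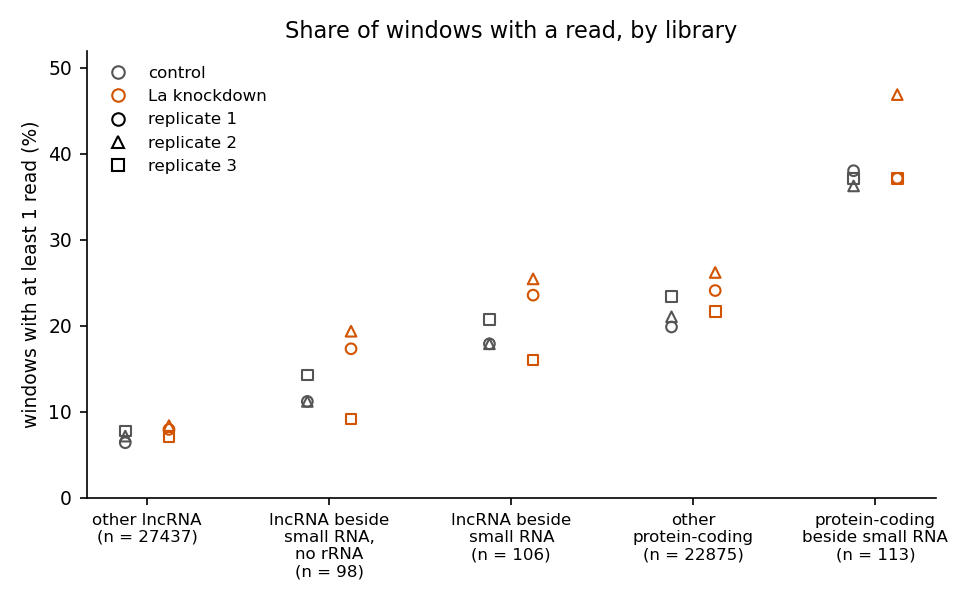
Percentage of windows with at least 1 read in each library (vertical axis) for the lncRNA windows beside small RNA genes, with and without rRNA neighbours, and for 3 other sets, one point per library. The lncRNA windows beside small RNA genes lie between 16.0% and 25.5%, above other lncRNA windows and below the protein-coding windows beside small RNA genes.

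The arms overlapped in how many of the 106 windows were read. The share was 18.9% ± 1.63 under the control siRNA and 21.7% ± 4.99 under the La siRNA (SD, n = 3 each), a difference of 2.83 points (p = 0.4 by a two-sided exact permutation test, which cannot go below 0.1 here). It was 0.943 points without La knockdown replicate 2 and 5.66 without La knockdown replicate 3 (exact permutation p = 0.8 and 0.1).

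The 8 windows beside rRNA genes lie in rRNA repeats, in pseudogenes of them or at a matching distance from a repeat's miRNA gene. On chromosome 21, lncRNA_41679 starts 313 bp into RNA28SN1, and lncRNA_41675 and lncRNA_41677 start 288 bp into RNA28SN2 and RNA28SN3, all copies of the 28S rRNA gene. lncRNA_41678 and lncRNA_41676 start 315 bp after the end of RNA18SN1 and 313 bp after that of the pseudogene RNA18SP5, in the spacer before 5.8S rRNA, which processing of the precursor removes. lncRNA_667 starts 885 bp after the start of MIR10396A. In RNA45SN1, 18S runs from 552 to 2420 bp after the start of the related MIR10396B, a stretch that includes that distance. lncRNA_34858 and lncRNA_34859 overlap each other in the chromosome 16 pseudogene LOC110262331, which is 1865 bp long, while RNA18SN1 has 1869 bp. The table labels all 8 as lncRNA. Near-identical copies can share reads, so their values are uncertain for any single copy.

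Along RNA45SN1, the copy of the whole precursor gene, the level was higher within 18S, 5.8S and 28S than in the spacer before 5.8S. Here values are CPM by library size, averaged over the 6 libraries. lncRNA_41679, inside 28S, had 5294 CPM (lowest library 3784, highest 8514), and lncRNA_41678, in the spacer, had 54.0 CPM (27.8 to 87.4). The rRNA window over the 5.8S gene had 22623 CPM, and the window at the start of the precursor gene 7.73. The spacer window was far below the windows on either side, of 3872 and 22623 CPM. Not all sequence outside the 18S, 5.8S and 28S genes was so low: a window 277 bp after the precursor start, ahead of 18S, had 1693 CPM.

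**Figure D3:**
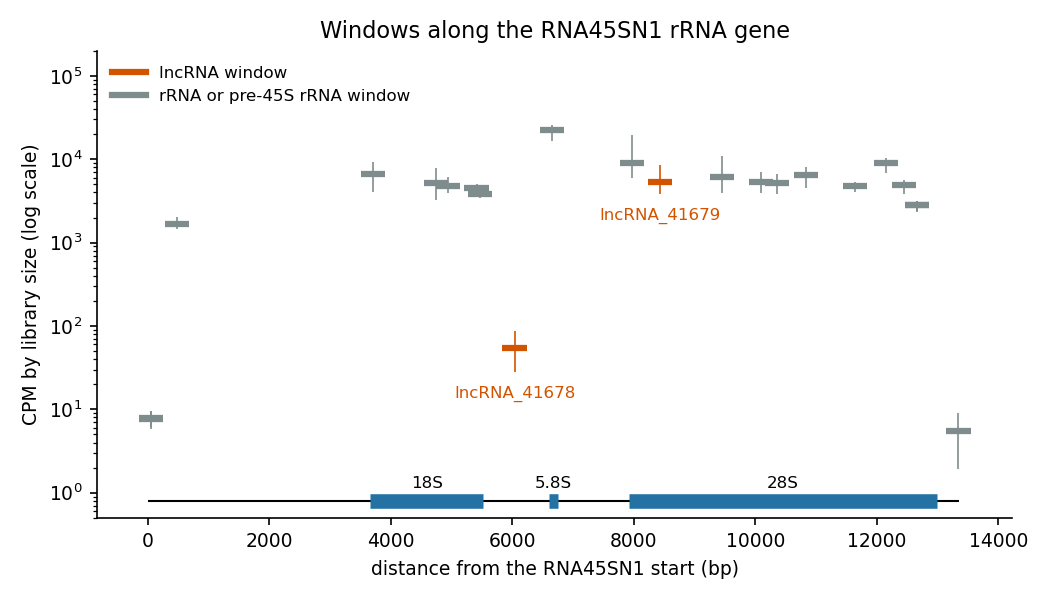
Mean CPM by library size (vertical axis, log scale) of windows along RNA45SN1 against distance from its start in bp, with bars for window width and lines from the lowest to the highest library. The lncRNA windows lie at 5294 CPM inside 28S and at 54.0 CPM in the spacer before 5.8S.

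Only 9 of the 106 windows were abundant enough to compare the arms: the 8 beside rRNA and lncRNA_45461. Each had at least 102 reads in every library. Of the 9, 0 were lower and 0 higher at an adjusted p under 0.05 (edgeR quasi-likelihood test, Benjamini-Hochberg over 1064 windows). Among all tested windows 4.79% passed as lower and 0.658% as higher. At an unadjusted p under 0.05, 3 of 9 were higher, against 9.68% of all tested windows. DESeq2 also called 0 at an adjusted p under 0.05, where it called 7.14% of all tested windows lower and 2.16% higher. It had 4 of 9 higher at an unadjusted p, against 12.2% of all tested windows. Every La knockdown library lay above every control library for 6 of 9, against 14.1% of all tested windows, and below for 0, against 17.9%. The 8 windows beside rRNA come from copies of one repeat, so they are not independent.

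The median log2 change of the 9 was 0.55 (0.48 to 0.93), while over all tested windows it was -0.05. The 146 tested rRNA windows had 0.47 and the 75 tested lncRNA windows 0.52. Without La knockdown replicate 2 the median of the 9 was 0.34 (0.13 to 0.48), and the lowest adjusted p by edgeR was 0.439. The nearest small RNA windows of the 9 had log2 changes of their own, from 0.15 for the one beside lncRNA_41678 to 1.18 for the one beside both chromosome 16 windows, and 0 of them passed the test with all libraries and TMM factors. The chromosome 16 neighbour, at an edgeR adjusted p of 0.131, passed with DESeq2 (adjusted p = 0.0488), with upper quartile factors (0.0495) and without La knockdown replicate 3 (0.0425). Without that replicate the neighbours of the 3 windows in 28S passed as well (edgeR adjusted p = 0.0454 to 0.0467), and the neighbour of lncRNA_667 passed with upper quartile factors (0.0495).

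**Figure D4:**
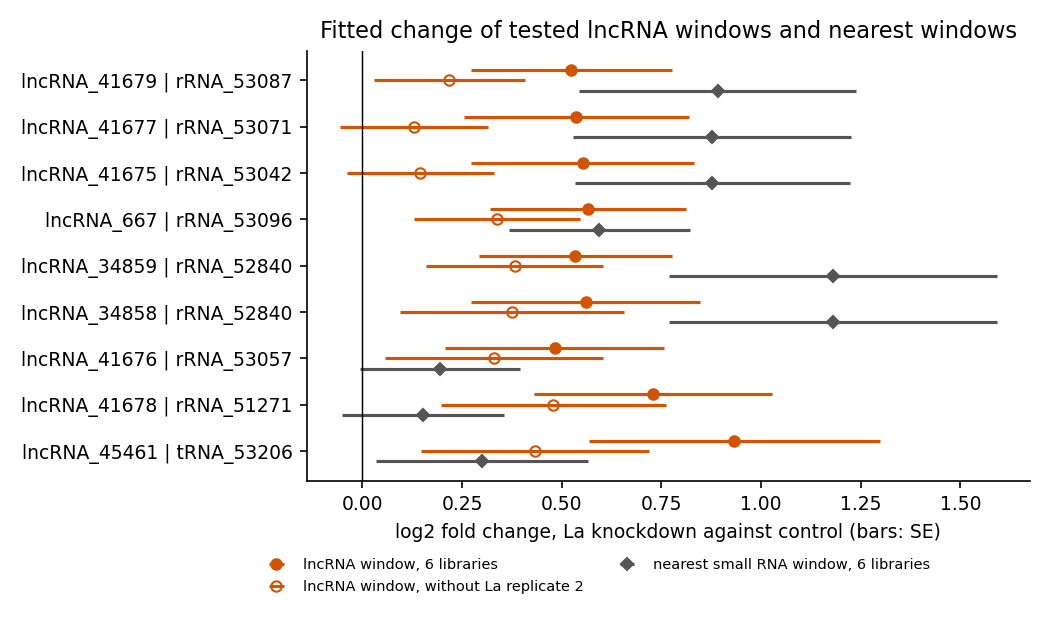
Log2 change of La knockdown against control (horizontal axis, edgeR) with SE for each of the 9 tested windows, with all libraries and without La knockdown replicate 2, and for its nearest small RNA window with all libraries. All 9 lie above 0 in both fits, at 0.48 to 0.93 with all libraries and at 0.13 to 0.48 without that replicate.

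Among the 28S windows, lncRNA_41679 (chr21:8441459-8441858) held 15536, 14962 and 17790 reads under the control siRNA, compared with 15789, 29041 and 14605 under the La siRNA. La knockdown replicate 2 was the high library, and the arms overlapped both with it and without it. Scaled by TMM factors, its level was 4363 ± 283 CPM under the control siRNA and 6272 ± 2047 under the La siRNA (SD, n = 3 each). The log2 change was 0.52 (SE 0.25, edgeR adjusted p = 0.227), and 0.22 without La knockdown replicate 2. The near-identical copies lncRNA_41675 (chr21:8214176-8214575) and lncRNA_41677 (chr21:8397214-8397613) had log2 changes of 0.55 and 0.54 (edgeR adjusted p = 0.240 and 0.247), and of 0.15 and 0.13 without that library.

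In the spacer, lncRNA_41678 (chr21:8439059-8439458) held 114, 143 and 194 reads under the control siRNA, compared with 172, 298 and 169 under the La siRNA. Its scaled level was 40.8 ± 10.3 CPM under the control siRNA and 67.6 ± 18.0 under the La siRNA, with scaled values that did not overlap. The log2 change was 0.73 (SE 0.30, edgeR adjusted p = 0.174) and 0.48 without La knockdown replicate 2. Its nearest rRNA window, at the end of 18S, had a log2 change of 0.15. lncRNA_41676 (chr21:8256017-8256416), at the matching place after RNA18SP5, held 122, 155 and 198 reads against 148, 241 and 178, a change of 0.48 (edgeR adjusted p = 0.276).

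lncRNA_667 (chr21:8988502-8988901) held 1904, 1972 and 2141 reads under the control siRNA, compared with 2045, 3488 and 2092 under the La siRNA. Its log2 change was 0.57 (SE 0.25, edgeR adjusted p = 0.193), and 0.34 without La knockdown replicate 2. On chromosome 16, lncRNA_34859 (chr16:34161229-34161628) held 480, 465 and 499 reads against 540, 758 and 479, a change of 0.53 (edgeR adjusted p = 0.208). Its overlapping partner lncRNA_34858 (chr16:34161448-34161847) had a change of 0.56 (edgeR adjusted p = 0.244). In each of these windows La knockdown replicate 2 was again the highest library.

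**Figure D5:**
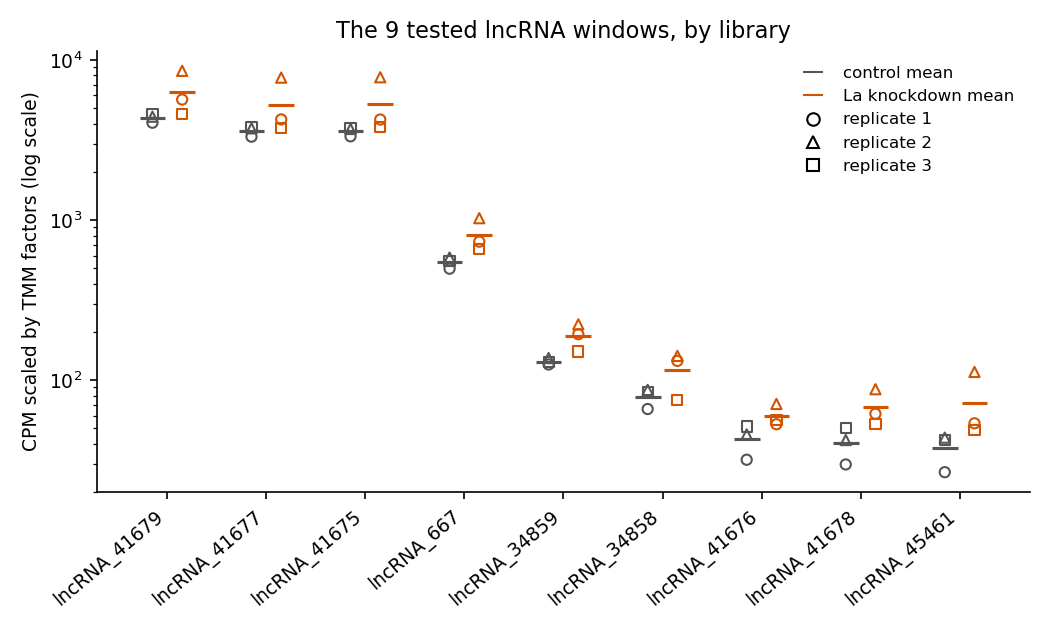
TMM-scaled CPM (log scale) of the 9 tested windows in each control and La knockdown library, one point per library. Horizontal lines are arm means, and La knockdown replicate 2 is the highest point in each window.

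lncRNA_45461 (chr5:134926952-134927351) was the one well-read window outside rRNA sequence. It lies in MTND4P12, the nuclear MT-ND4 copy shown above, within the PCBD2 gene, 143 bp from a window labelled as tRNA that lies in the same mitochondrial copy and in MTND5P11. It held 102, 148 and 164 reads under the control siRNA, compared with 150, 382 and 155 under the La siRNA. Its scaled level was 37.6 ± 9.55 CPM under the control siRNA and 71.7 ± 35.4 under the La siRNA, and 51.3 CPM in that arm without replicate 2. The log2 change was 0.93 (SE 0.36, edgeR adjusted p = 0.157), the largest of the 9, and 0.43 without that library.

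The window matched MT-ND4 at 387 of 400 bases (96.8%), with 71 bases as the longest identical run. Of its 376 stretches of 25 bases, 135 (35.9%) were also found in MT-ND4, so a short read can fit both places. Where the authors placed such reads is not given in the sources used here. The other nuclear mitochondrial copies among the 106 windows were less alike and less read. MTCO1P2, at 90.5% identity to MT-CO1, held 1, 3 and 8 reads under the control siRNA, compared with 1, 5 and 0 under the La siRNA. MTND2P21 and MTND2P12, at 72.7% and 70.3% identity to MT-ND2, held 1 and 0 reads.

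As shares of all counts, the 106 windows took 1.07%, 1.33% and 1.45% under the control siRNA, compared with 1.40%, 2.57% and 1.33% under the La siRNA. The means were 1.28% ± 0.194 and 1.77% ± 0.694 (SD, n = 3 each, exact permutation test, two-sided p = 0.4, adjusted p = 0.514 over 9 comparisons). Without La knockdown replicate 2 that arm's mean was 1.37%. Without the rRNA neighbours the shares were 0.00443% ± 0.00147 and 0.00769% ± 0.00372 (exact permutation p = 0.2). Without lncRNA_45461 as well they were 0.000521% ± 0.000253 and 0.000694% ± 0.000190 (exact permutation p = 0.5). With the 50 windows of most counts left out of the total, the difference for the 106 windows was 1.21 points in place of 0.481, with arms that did not overlap (exact permutation p = 0.1, the smallest possible). No share passed the test, and 3 against 3 libraries cannot go below 0.1.

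The reads of the windows were also set against those of all small RNA windows within 1000 bp, not the nearest alone. Per 1000 such reads the windows held 73.3 ± 9.38 under the control siRNA and 90.1 ± 26.1 under the La siRNA (SD, n = 3 each, exact permutation p = 0.6). The mean under the La siRNA was 75.0 without La knockdown replicate 2. Without the rRNA neighbours the ratio was 0.848 ± 0.356 and 1.97 ± 1.47 (exact permutation p = 0.3), and 1.12 under the La siRNA without replicate 2. Without lncRNA_45461 as well it was 0.1003 ± 0.0543 and 0.170 ± 0.0799 (exact permutation p = 0.3).

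The authors' deposited table called 82 windows in all, beside 53603 windows with counts, and 0 of the 106. With so few calls, 0 of the 106 says little about these windows. Its log2 of the mean CPM was 6.30 for lncRNA_45461 and 5.29 for lncRNA_41678, which held 1101 and 1090 reads here. Windows with 0 reads in all 6 libraries also differed there: lncRNA_19613, beside RNY4, had -0.274, lncRNA_31564, beside SNORD59A, had -0.280, and lncRNA_11934 had -0.424. Equal counts here thus went with unequal values there, so those values do not follow from the counts of these 6 libraries alone. Which libraries that comparison used is not given in the sources used here. For the 9 tested windows the log2 change in the authors' deposited table ran from 0.20 to 0.61, and the lowest p was 0.210.

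RefSeq promoters of 300 bases overlapped some of the windows, 13 promoters in all, among them those of LINC01783, SNHG12, ZNF436-AS1 and the nuclear pore gene NUP153. The core of the B box, a polymerase III promoter element inside tRNA genes, was searched as GGTTCGA on both strands. It was in 0 of the 13, while 0.860% of all 35116 promoters held it. The letters TATAAA, which do not overlap it, were in 1 of the 13, that of LINC00910, and in 11.5% of all promoters. A missing match says only that these letters were not in these bases.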

How the data were processed

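Raw read counts of 400 bp windows in 6 libraries, as deposited by the authors, were used. The authors' deposited comparison gives, per window, the log2 fold change between the arms with the log2 of the mean CPM. It also gives the F statistic, taken here as a score, and its p-value before and after adjustment, all per the file headers. The submitters' processing notes name Trim Galore, Bowtie2, bedtools, edgeR and the build GRCh38 (hg38). Strand use and the placing of reads with several positions are not given in the sources used here, so antisense transcripts and copies cannot be told apart. Window starts were shifted by 1.

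All windows were fitted with edgeR 4.0.16 in R 4.3.3 (filterByExpr, TMM factors, quasi-likelihood test, arm as the single term, Benjamini-Hochberg adjustment, threshold 0.05), after a test on simulated data. Single values per library were compared by exact permutation. Names came from GENCODE release 29 and RefSeq GRCh38.p14. DESeq2 1.42.0 and other scalings were alternatives. Figures used matplotlib 3.10.9. The windows, lists and tests were chosen with earlier results of these data known. The tested windows with the highest mean count, up to 12, were named, with the largest changes and the windows nearest the distance limit. As no window overlapped a small RNA window, the results planned for windows without overlap equal those for all 106. Polymerases were assigned by the neighbour's class from general knowledge.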

Additional observations from a re-analysis of the deposited data

How the results depend on the processing

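No lncRNA window beside a small RNA gene was called higher or lower in any of 18 alternatives, leaving out each library included (0 to 0 in both directions). These do not weigh equally. Without La knockdown replicate 1, 0 of the 1121 windows fitted in all were called, so none could be here. The windows within 200 bp and the adjusted p under 0.01 were read from the main fit, so they could add none. With upper quartile factors, 36 of the 1064 windows fitted in all were lower and 58 higher. The median log2 change of the tested windows was 0.55, kept its direction, and ran from 0.34 to 0.65 when one library was left out, lowest without La knockdown replicate 2. With upper quartile factors it was 0.86, a scaling that moved the median of all windows by 0.32. Relative to that median the tested windows lay at 0.61 with TMM factors and at 0.60 with upper quartile factors. With low counts kept in, 49 of the windows were fitted and their median was 0.28. Leaving out one library, the difference between the arms ran from 0.0808 to 0.699 percentage points for the share of counts (0.481 with all libraries). For reads per 1000 reads of all small RNA windows within 1000 bp it ran from 1.68 to 24.4 (16.7 with all libraries). For the share of windows with a read it ran from 0.943 to 5.66 points (2.83 with all libraries). All 3 were lowest without La knockdown replicate 2. Without the 50 windows with the most counts in the denominator the difference in the share was 1.21 points (exact permutation p = 0.1). The labels do not say whether the replicate numbers pair the samples. Correlations of deviations between libraries of the same number were 0.14, 0.23 and -0.46, too few and too mixed to decide it. With the number as a block the median was 0.52 and 0 windows were called, while calls over all windows moved from 51 to 88 lower and from 7 to 20 higher. Subsets without rRNA neighbours and without lncRNA_45461 were chosen after seeing the data. The alternative restricted to windows that overlap a small RNA window gave no value, as there were none. Depth limits the 97 windows outside rRNA sequence and lncRNA_45461, with 122 reads in all, in which no difference between the arms was detectable.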

Other observations

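The 4 lncRNA windows left out on chromosome 1 lie in nuclear copies of the mitochondrial genes for ATP synthase and cytochrome oxidase subunits (MTATP8P1, MTATP6P1 and MTCO3P12), where each overlaps another of the 4. The first, lncRNA_914, held 33, 48 and 69 reads under the control siRNA, compared with 55, 152 and 66 under the La siRNA. The best read, lncRNA_25642, held 135, 143 and 187 against 161, 349 and 152. In both windows La knockdown replicate 2 was the highest library, as it was in MTND4P12. HCG11, a lncRNA gene among histone and tRNA genes on chromosome 6, held 0, 1 and 0 reads under the control siRNA, compared with 3, 2 and 3 under the La siRNA in lncRNA_46206, at 533 bp from the leucine tRNA gene TRL-CAG1-7. This window was picked out after its values had been seen, and a second window of HCG11 overlaps it and shares its reads. The counts of lncRNA_46206 were too few for the main fit. With low counts kept in, its log2 change was 2.60 (edgeR adjusted p = 0.581).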
